A study of Glycine max with 12 samples.

Results

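The 8 genes described here lost most of their reads in closed soybean (Glycine max) flowers that developed at high temperature, whether or not the plants were also short of water. They were chosen from their own values among 55897 genes. A gene entered when its CPM (its reads per 1000000 reads counted to genes in the library) was at least 4 in each of the 6 unheated libraries, and when its highest CPM in the 6 heated libraries was at most 25% of its lowest CPM in the unheated ones. Of all genes, 25052 met the first condition and 8 met both. Per the gene descriptions in the study's lists, these 8 encode a spermidine synthase, a UDP-glucosyltransferase, a cytochrome P450, a glycerol-3-phosphate acyltransferase, a subtilase, a late embryogenesis abundant (LEA) hydroxyproline-rich glycoprotein, a zinc induced facilitator-like transporter and a protein with the domain of unknown function DUF833. Because heat chose these genes, their difference between heated and unheated flowers is given throughout as a description, and nothing is read from a test of it. The tests concern water deficit, which the rule did not use to separate the groups. The rule did take the lowest unheated and the highest heated library, over both water supplies. A gene strongly lowered by water deficit in unheated flowers, or with widely spread libraries, was therefore less likely to enter.

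Whole closed flowers (labelled as buds) of the cultivar Magellan were sampled after plants had spent 10 d under 1 of 4 conditions from the start of flowering, with 3 libraries per condition. Control plants (CT) were kept at a day temperature of 28°C and well watered, and water deficit (WD) plants at the same temperature received 30% of the water available for transpiration. Heat stress (HS) plants were well watered at 38°C, and WD + HS plants combined 38°C with the restricted water supply. Per the study's methods the night temperature was also higher in HS and WD + HS than in CT and WD. Below, 28°C and 38°C name these regimes by their day temperature. All plants had been inoculated with Bradyrhizobium japonicum as seeds. Each library was made from a pool of 30 to 40 flowers from 8 to 10 plants. Per the study's methods each condition occupied 1 growth chamber, so chamber and treatment cannot be told apart. The study measured a higher inner temperature in WD + HS flowers than in HS flowers. WD + HS against HS thus differed in flower temperature as well as in water supply. The spread between libraries is that between pools of flowers from the same chamber. Whether the 3 pools came from 1 run of that chamber or from repeated runs was not given. The libraries held 14049107 to 22415845 counted reads, so that 3 reads were worth 0.134 to 0.214 CPM. The summed CPM of 4 genes described as of anther or pollen was 47.1 to 51.04 in CT, 46.0 to 58.0 in WD, 50.1 to 52.7 in HS and 55.6 to 59.0 in WD + HS. That of 11 genes described as histones or mitotic cyclins was 208 to 238 in CT, 150 to 204 in WD, 104 to 114 in HS and 99.0 to 113 in WD + HS. That of 2 genes described as of leaf-like green tissue was 61.5 to 167 in CT, 123 to 192 in WD, 129 to 172 in HS and 48.9 to 198 in WD + HS. It thus varied widely between libraries of the same condition. In the list of dividing cells every WD library was below every CT library, and every heated library was below every unheated one. These lists hold only genes with a description in the study's lists of changed genes, so they were partly chosen for change. The part of any of these lists in the values below was not tested. No gene with a floral organ identity description was among those with a description, so the tissue label was not checked against such markers. In whole flowers, fewer cells of a type and less RNA per cell cannot be told apart.

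A closed soybean flower self-pollinates before it opens, so its anthers and pistil mature inside it. Sepals cover most of its outer surface. Polyamines such as spermidine, the hormone abscisic acid (ABA) and the lipids of anther cells all take part in flower development and stress responses of plants. The genes below belong to separate steps of this chemistry and to transport, protein cleavage and the cell surface, and no list of description words used here held more than 1 of them.

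The 8 genes were spread over 7 chromosomes. The 2 on chromosome 6, the LEA glycoprotein and the transporter, had 101 listed genes between them, and no member had an identifier next to that of another. Together they took 172 to 256 CPM in an unheated library, 26.7 to 31.1 CPM in an HS library and 18.1 to 21.5 CPM in a WD + HS library. The DUF833 gene was the largest contributor to that sum in every library. The plot of CPM in every library shows the gap in each gene and the limit that the rule set.

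**Figure D1:**
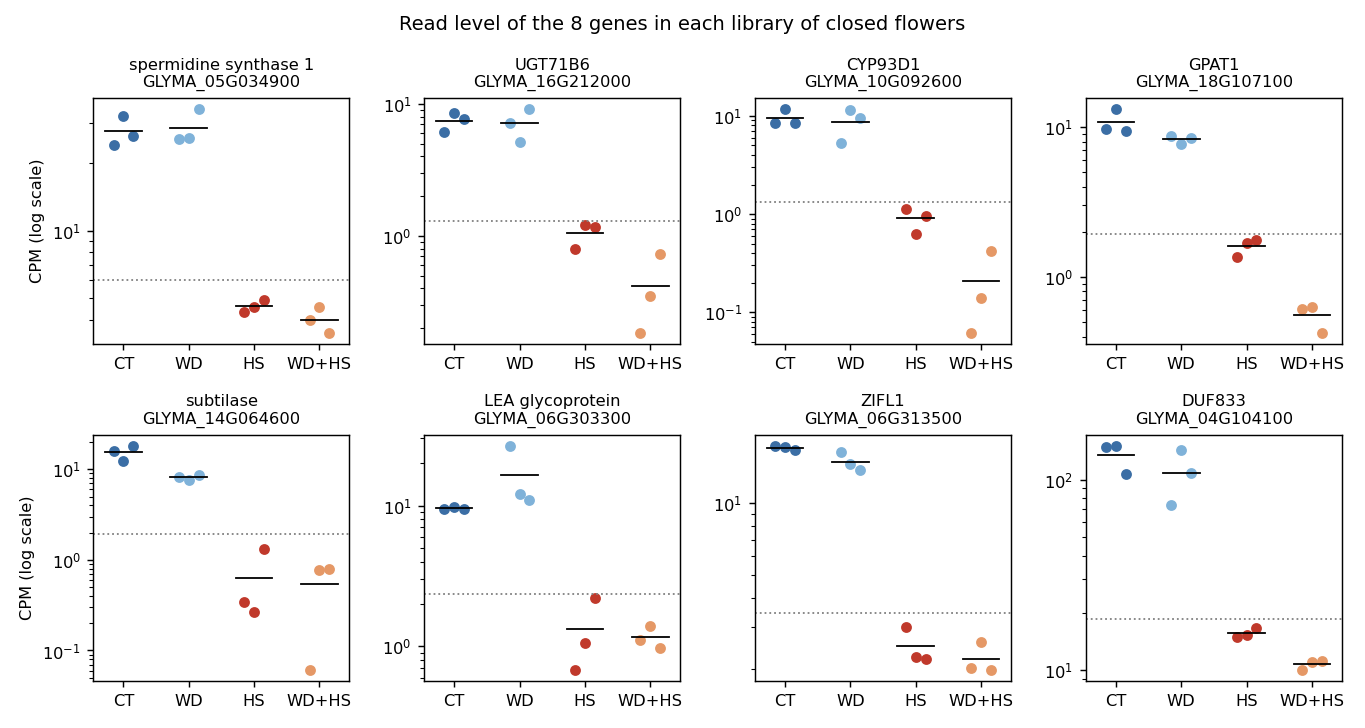
CPM (log scale) of each of the 8 genes in the 3 libraries of CT, WD, HS and WD + HS (points), with the group mean (black line) and the limit of 25% of the lowest unheated library (dotted line). All 6 heated libraries sit under the dotted line in every panel, as the rule required, and the WD + HS points sit below all HS points for UGT71B6, CYP93D1, GPAT1 and DUF833.

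Spermidine synthase attaches an aminopropyl group to putrescine to form spermidine, a polyamine found in all plant tissues. The gene described as spermidine synthase 1, GLYMA_05G034900, stood at 24.0, 32.4 and 26.3 CPM in CT. In WD it stood at 25.5, 25.9 and 34.6 CPM. The heated values were 4.32, 4.58 and 4.89 CPM in HS and 3.99, 4.57 and 3.50 CPM in WD + HS. CT overlapped WD, HS overlapped WD + HS, and every heated library lay far below every unheated one. The mean in HS was 16.7% of that in CT. With water deficit the log2 fold change was 0.06 (SE 0.138) at 28°C and -0.16 (SE 0.184) at 38°C, and neither passed the test (edgeR quasi-likelihood, Benjamini-Hochberg adjusted p = 0.889 and 0.689). The 95% interval at 38°C ran from -0.59 to 0.26. The ratio of heated to unheated values of spermidine synthase 1 depended on the scale. On the authors' length-scaled values (FPKM, fragments scaled to transcript length and library size) its highest heated library, at 2.94, was 36.9% of its lowest unheated library, at 7.97, so that it would not have met the limit on that scale.

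Another spermidine synthase with a description took the opposite direction. Spermidine synthase 3, GLYMA_04G237300, stood at 30.5, 30.2 and 31.1 CPM in CT and 37.9, 40.0 and 36.3 CPM in WD. It stood at 57.0, 49.9 and 53.4 CPM in HS and 52.1, 54.2 and 61.7 CPM in WD + HS. All heated libraries were above all unheated ones. The gene rose by a log2 fold change of 0.78 (SE 0.0878) in HS against CT (edgeR, adjusted p = 7.76e-07) and by 0.56 (SE 0.0876) in WD + HS against WD (adjusted p = 5.44e-05). The 2 genes thus moved apart in the heat.

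UGT71B6 in Arabidopsis attaches glucose to ABA and so converts the active hormone into a storage conjugate. The soybean gene with this description, GLYMA_16G212000, stood at 6.13, 8.52 and 7.74 CPM in CT and at 7.12, 5.17 and 9.11 CPM in WD. It stood at 0.796, 1.21 and 1.16 CPM in HS, from 14, 23 and 23 reads. In WD + HS it stood at 0.184, 0.351 and 0.725 CPM, from 3, 5 and 12 reads. The unheated groups overlapped, whereas every WD + HS library was below every HS library. The log2 fold change with water deficit at 38°C was -1.27 (SE 0.431) and did not pass the test over all genes (edgeR, adjusted p = 0.0722), with a 95% interval from -2.27 to -0.28. Its adjusted p ranged from 0.0115 to 0.293 over 21 alternatives, and it passed the threshold in DESeq2 (0.0452), in limma on log2(FPKM + 0.1) (0.0115) and without WD + HS replicate 3 (0.0216). At 28°C the corresponding value was -0.06 (SE 0.271, adjusted p = 0.953 by edgeR).

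CYP93D1 is a cytochrome P450 of a family whose legume members include the isoflavone and flavone synthases, while the substrate of CYP93D1 itself is not given here. GLYMA_10G092600 carried this description and stood at 8.54, 11.7 and 8.41 CPM in CT and at 5.27, 11.4 and 9.58 CPM in WD. It stood at 1.14, 0.632 and 0.957 CPM in HS, which were 20, 12 and 19 reads. In WD + HS the values were 0.0613, 0.141 and 0.423 CPM, which were 1, 2 and 7 reads. All WD + HS libraries were below all HS libraries and near the limit of detection, while WD overlapped CT. Summed over libraries, 10 reads in WD + HS against 51 in HS gave a rate of 23.5% (exact 95% interval 10.6% to 46.8%, which covers counting error only). CYP93D1 fell by 2.02 on the log2 scale (SE 0.557) in WD + HS against HS and passed the test (edgeR, adjusted p = 0.0229), with a 95% interval from -3.31 to -0.74. With single libraries left out the log2 fold change ranged from -3.06 (without WD + HS replicate 3) to -1.58 (without WD + HS replicate 1). The call was lost without HS replicate 1 (adjusted p = 0.0857), HS replicate 3 (0.0624), WD + HS replicate 1 (0.13) or WD + HS replicate 2 (0.0976), in limma on log2(FPKM + 1) (0.233) and when the fit held only the libraries compared (0.0576). At 28°C water deficit gave -0.11 (SE 0.277, adjusted p = 0.905 by edgeR).

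GPAT1 adds the first fatty acid to glycerol-3-phosphate in the synthesis of glycerolipids, and in Arabidopsis it is a mitochondrial enzyme needed for development of the tapetum, the cell layer that feeds the pollen. GLYMA_18G107100, the soybean gene with this description, stood at 9.72, 13.2 and 9.40 CPM in CT and 8.68, 7.70 and 8.44 CPM in WD. In HS it stood at 1.37, 1.69 and 1.76 CPM, from 24, 32 and 35 reads. In WD + HS it stood at 0.613, 0.632 and 0.423 CPM, from 10, 9 and 7 reads. The 4 groups formed a descending series without overlap: every WD library was below every CT library, every HS library below every WD library, and every WD + HS library below every HS library. GPAT1 fell by 1.49 on the log2 scale (SE 0.308) in WD + HS against HS (edgeR, adjusted p = 0.00267, 95% interval -2.20 to -0.78). Its adjusted p ranged from 0.00146 to 0.0453 over the 21 alternatives that could be run, so it passed the threshold in each. The step from CT to WD, at -0.37 (SE 0.197), did not pass (adjusted p = 0.416 by edgeR).

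Subtilases are serine proteases, most of them secreted, that cut proteins of the cell wall and apoplast. The subtilase GLYMA_14G064600 had the deepest loss in HS of the 8 genes. It stood at 15.8, 12.4 and 18.2 CPM in CT and 8.26, 7.64 and 8.58 CPM in WD. In HS it stood at 0.341, 0.263 and 1.31 CPM, from 6, 5 and 26 reads. In WD + HS it stood at 0.0613, 0.773 and 0.785 CPM, from 1, 11 and 13 reads. The heated groups overlapped, with HS replicate 3 high and WD + HS replicate 1 low, and both held few reads. All WD libraries were below all CT libraries. The mean in HS was 4.12% of that in CT, and its fitted log2 fold change of -4.58 was the 28th lowest of the 38410 genes fitted. Water deficit at 28°C gave -0.91 (SE 0.301, 95% interval -1.60 to -0.21), which did not pass over all genes (edgeR, adjusted p = 0.148) but did when no filter on low counts was used (0.0454) and when only CT and WD were fitted (0.0256). At 38°C it gave -0.25 (SE 0.568, adjusted p = 0.869 by edgeR).

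LEA hydroxyproline-rich glycoproteins are named for similarity to proteins that accumulate in drying seeds, and no single role is known for the family. The member with this description, GLYMA_06G303300, stood at 9.46, 9.81 and 9.52 CPM in CT. In WD it stood at 26.5, 12.1 and 10.9 CPM. The heated values were 0.682, 1.05 and 2.22 CPM in HS and 1.10, 1.41 and 0.966 CPM in WD + HS. The CT libraries were nearly equal, WD replicate 1 stood well above the other WD libraries, and the heated groups overlapped. The LEA glycoprotein gene was the only member with every WD library above every CT library. Its log2 fold change with water deficit was 0.79 at 28°C (SE 0.283) and -0.18 at 38°C (SE 0.432), neither of which passed the test (edgeR, adjusted p = 0.191 and 0.881).

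ZIFL1 in Arabidopsis is a transporter of the major facilitator superfamily that acts in auxin transport in roots and, as a shorter splice form, in guard cells. The soybean gene with this description, GLYMA_06G313500, stood at 17.3, 17.1 and 16.6 CPM in CT and 16.4, 14.5 and 13.7 CPM in WD. It stood at 3.01, 2.26 and 2.22 CPM in HS and at 2.02, 2.60 and 1.99 CPM in WD + HS. WD lay just below CT in every library, and the heated groups overlapped. The log2 fold change with water deficit was -0.18 (SE 0.150) at 28°C and -0.15 (SE 0.205) at 38°C (edgeR, adjusted p = 0.653 and 0.765). ZIFL1 was thus lowered by heat to a like extent at both water supplies, to 14.7% of CT in HS and 14.8% of WD in WD + HS. The difference of the water deficit effects was 0.04 on the log2 scale, with a 95% interval from -0.56 to 0.63.

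The DUF833 gene GLYMA_04G104100 gave the most reads of the 8, and its function is not given by its description. It stood at 148, 151 and 107 CPM in CT. In WD it stood at 74.0, 144 and 109 CPM. The heated values were 15.01, 15.3 and 16.6 CPM in HS and 10.1, 11.03 and 11.2 CPM in WD + HS. The unheated groups overlapped, and WD replicate 1 was the low one. The heated libraries were tightly grouped, and all of WD + HS lay below all of HS. The log2 fold change with water deficit at 38°C was -0.50 (SE 0.197) and did not pass the test (edgeR, adjusted p = 0.131). It passed with no filter on low counts (0.0261), with only HS and WD + HS in the fit (0.00976), and without WD replicate 1 (0.0182) or WD replicate 2 (0.0376). At 28°C the value was -0.30 (SE 0.160, adjusted p = 0.431 by edgeR).

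Per length of transcript, the DUF833 gene also stood apart. Its mean FPKM was 121 ± 5.59 (SD, n = 3) in CT, 96.9 ± 34.0 in WD, 14.9 ± 0.732 in HS and 10.9 ± 1.03 in WD + HS. The other 7 genes had mean FPKM of 4.69 to 9.61 in CT and of 0.160 to 2.22 in HS. The DUF833 level in every HS library was therefore still above the CT levels of each of the other 7. Among those 7 in CT, spermidine synthase 1 (9.61 ± 0.434) and the LEA glycoprotein (9.46 ± 0.478) did not differ beyond their spread, nor did CYP93D1 (4.71 ± 0.437) and UGT71B6 (4.69 ± 0.607).

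The loss in heat was described by the rule's own values. The mean in HS was 4.12% to 16.7% of that in CT, lowest for the subtilase and highest for spermidine synthase 1. The mean in WD + HS was 2.38% to 14.8% of that in WD, lowest for CYP93D1 and highest for ZIFL1. All 8 members were called lower in HS against CT, where 16% of the 38410 genes tested were called lower, 15.9% higher and 31.8% in either direction (edgeR, adjusted p under 0.05). All 8 were called lower also in WD + HS against WD, where 16.4% of genes were lower, 13.7% higher and 30.2% either, and in WD + HS against CT, where 19.1% were lower, 17.7% higher and 36.8% either. These contrasts chose the genes, and nothing is read from the counts.

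The genes nearest the limit lay close together. Inside it, the highest heated library was 22.9% of the lowest unheated one for GPAT1, and 23.4% for the LEA glycoprotein and for UGT71B6. Outside it, mini zinc finger 2 (GLYMA_19G022200) stood at 25.6%, pathogenesis-related 4 (GLYMA_19G245400) at 25.8% and an ethylene-forming enzyme gene (GLYMA_09G008400) at 27.4%. Mini zinc finger 2 encodes a small zinc finger protein without the homeodomain of its relatives, and it stood at 4.24, 5.49 and 5.28 CPM in CT, 6.76, 8.13 and 5.43 CPM in WD, 0.227, 0.105 and 0.201 CPM in HS and 0.245, 0.702 and 1.09 CPM in WD + HS. Its HS libraries (4, 2 and 4 reads) were all below its WD + HS libraries (4, 10 and 18 reads) in CPM. None of the 8 members had this order. The highest HS library and the lowest WD + HS library held 4 reads each, so their order came from library size. With a limit of 50%, 59 genes met the rule, and the plot of the ratios by rank shows no break at 25%. With a limit of 12.5%, no gene met it.

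**Figure D2:**
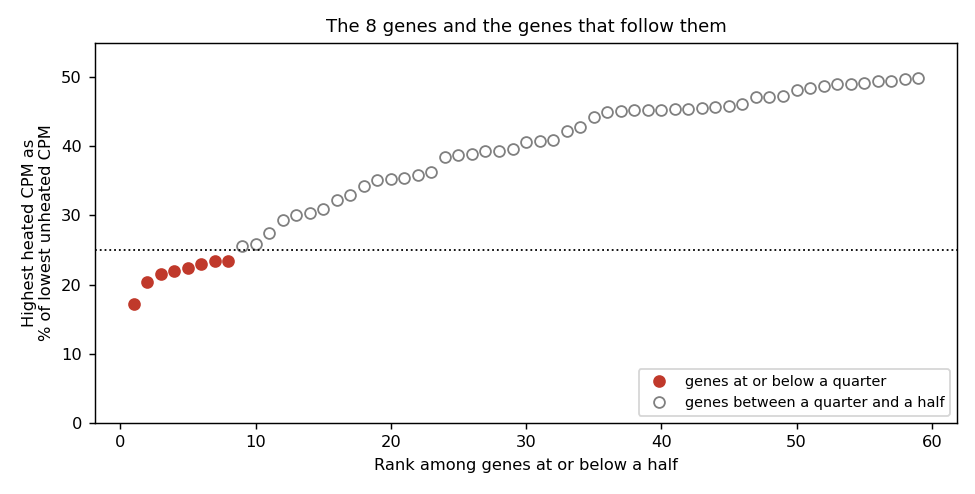
The highest heated CPM of each gene as a percent of its lowest unheated CPM, by rank, for the 59 genes at or below 50%. The 8 genes described here (filled) run from 17.1% to 23.4% and the next genes (open) follow at 25.6%, just above the dotted limit at 25%.

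Used in place of CPM, the FPKM values gave 8 genes as well, of which 5 were shared. Spermidine synthase 1 left because of its ratio, and CYP93D1 and the subtilase left because unheated libraries were under 4 FPKM, 1 WD library for CYP93D1 (3.03) and all 3 WD libraries for the subtilase (2.84, 2.92 and 2.46). Mini zinc finger 2, the ethylene-forming enzyme gene and a gene of the invertase and pectin methylesterase inhibitor superfamily (GLYMA_09G036200) entered. The 3 that left were those furthest inside the limit on CPM, while UGT71B6, GPAT1, ZIFL1, the LEA glycoprotein and DUF833 met the rule on both.

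Whether water deficit lowered the remaining level further at 38°C was asked with a test the rule did not fix, since it set the same upper limit for HS and WD + HS. Because WD + HS flowers were also warmer inside, water deficit and a warmer flower cannot be told apart in this test. All 8 members had a lower fitted level in WD + HS than in HS, beside 48.7% of all genes tested, with a median log2 fold change of -0.38 beside 0.01 over all genes. The genes tested were not limited to those lowered by heat, so the 8 and all genes are not alike here either. On FPKM (limma, pseudocounts 1 and 0.1) the LEA glycoprotein (0.12 and 0.20) and the subtilase (0.0545 and 0.24) had the opposite sign. CYP93D1 and GPAT1 were called, which is 2 of 8, where 5.94% of genes tested were called lower and 9.15% in either direction (edgeR, adjusted p under 0.05). No member was called higher, where 3.21% of genes were. For UGT71B6, CYP93D1, GPAT1 and DUF833, 4 of 8 members, every WD + HS library was below every HS library, beside 16.9% of all genes tested. The mean in WD + HS was 22.9% of that in HS for CYP93D1, 34.7% for GPAT1, 39.8% for UGT71B6 and 68.8% for DUF833. The other 4 members had 84.6% to 88.3%, and the 95% intervals of their log2 fold changes all included 0.

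Water deficit at 28°C called none of the 8 (edgeR), where 1.62% of genes tested were called, 0.682% lower and 0.937% higher. The rule's limit on the lowest unheated library made a gene with a large fall in WD less likely to be a member. The 8 and all genes are thus not alike in this contrast. At an unadjusted p under 0.05 there were 2 members, the subtilase and the LEA glycoprotein, in opposite directions, beside 13.9% of all genes tested. DESeq2 and limma on FPKM also called 0 members. The subtilase, GPAT1 and ZIFL1 had every WD library below every CT library, 3 of 8 members beside 9.14% of all genes tested, and the LEA glycoprotein had every one above, beside 7.42% of genes. The median log2 fold change of the 8 was -0.15.

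Whether the effect of water deficit differed between the temperatures was tested by the interaction of WD and HS. None of the 8 members was called, where 2.95% of genes tested were called, 2.45% in the negative direction and 0.497% in the positive (edgeR, adjusted p under 0.05), and DESeq2 and limma on FPKM called 0 as well. At an unadjusted p under 0.05 there were 3 members, CYP93D1, GPAT1 and UGT71B6, all negative, beside 13.6% of all genes tested. CYP93D1 had an interaction of -1.91 (SE 0.629), GPAT1 of -1.12 (SE 0.368) and UGT71B6 of -1.21 (SE 0.510), with edgeR adjusted p of 0.127, 0.127 and 0.279. The larger response of these 3 genes to water deficit in the heat was therefore not established over all genes. CYP93D1 passed without WD replicate 1 (edgeR, adjusted p = 0.0217).

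**Figure D3:**
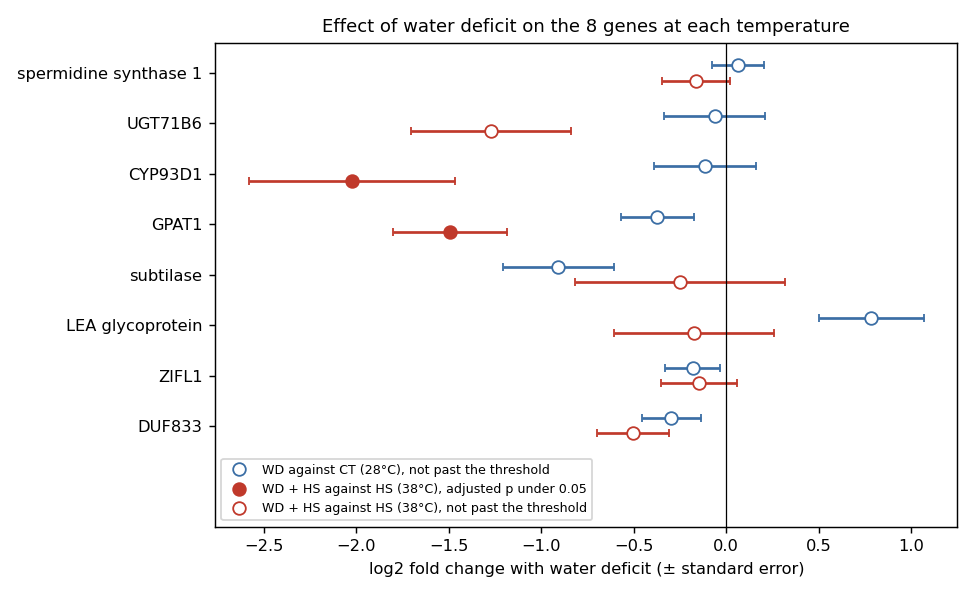
The log2 fold change with water deficit for each of the 8 genes, at 28°C (WD against CT, blue) and at 38°C (WD + HS against HS, red), with bars of 1 standard error and filled points for an edgeR adjusted p under 0.05. Only CYP93D1 (-2.02) and GPAT1 (-1.49) are filled, both at 38°C, and the subtilase and the LEA glycoprotein lie on opposite sides of 0 at 28°C.

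For 6 of the members, 13 other genes had the same kind of description. Descriptions came from lists of genes that the study found changed, some of them by heat, so these relatives are not whole families and their counts are a description. In HS against CT, where 16% of all genes tested were lower and 15.9% higher, 4 of the 13 were lower, 3 higher and 6 not called (edgeR, adjusted p under 0.05). Their median log2 fold change was 0.01, beside -2.85 for the 8 members. The steepest falls were in the DUF833 and LEA glycoprotein families. The other DUF833 gene, GLYMA_06G105100, stood at 10.8, 10.4 and 9.89 CPM in CT, 8.90, 8.07 and 7.64 CPM in WD, 1.93, 2.32 and 2.52 CPM in HS and 0.491, 1.97 and 1.69 CPM in WD + HS. As in GLYMA_04G104100, every heated library was below every unheated one, but it missed the limit of the rule with a ratio of 33%. Unlike in GLYMA_04G104100, every WD library was below every CT library, and HS overlapped WD + HS. Another LEA glycoprotein gene, GLYMA_18G051200, stood at 2.80, 2.32 and 1.35 CPM in CT and 3.92, 4.74 and 4.42 CPM in WD, and fell to 0 to 0.604 CPM in the heated libraries, but its highest heated library was 44.7% of its lowest unheated one, and some unheated libraries were under the minimum of 4 CPM. A further gene with the LEA glycoprotein description, GLYMA_10G079900, rose by a log2 fold change of 1.03 (SE 0.196, adjusted p = 0.000378 by edgeR) in HS against CT. It rose by 0.59 in WD + HS against WD (adjusted p = 0.0417) but stood at -0.01 in WD + HS against CT (0.97). In WD + HS against HS, 2 of the 13 relatives were lower and 0 higher, beside 5.94% and 3.21% of all genes tested. These were GLYMA_10G079900 (-1.04, edgeR adjusted p = 0.00123) and the subtilase GLYMA_17G236800 (-1.04, 0.0419), so such a fall was not particular to the members.

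In HS against CT, other relatives differed from the members. The GPAT2 gene GLYMA_03G221300, of the same acyltransferase group as GPAT1, stood at 0.391, 0.268 and 0.430 CPM in CT and at 1.93, 1.63 and 3.32 CPM in HS. GPAT2 rose by a log2 fold change of 2.64 (SE 0.653) in HS against CT (edgeR, adjusted p = 0.00376), from few reads. In WD + HS against WD its value was 1.41 (SE 0.611) and did not pass (edgeR, adjusted p = 0.0876). The ZIFL1 genes GLYMA_13G186500 and GLYMA_13G186600 had log2 fold changes of -0.02 and -0.11 in HS against CT, beside -2.79 for GLYMA_06G313500. Among the subtilases, GLYMA_02G252200 fell by 0.84 on the log2 scale (SE 0.188, adjusted p = 0.00177 by edgeR), while GLYMA_14G087500 and GLYMA_17G236800 were not called in HS against CT. In WD + HS against WD, 5 of the 13 relatives were lower and 2 higher (edgeR, adjusted p under 0.05), beside 16.4% and 13.7% of all genes tested. All 3 of these subtilases were among the lower ones there, with log2 fold changes of -0.81 for GLYMA_02G252200, -2.55 for GLYMA_14G087500 and -1.26 for GLYMA_17G236800 (edgeR, adjusted p = 0.00418, 0.00119 and 0.00447). The reads of near-identical copies may have been divided between them, since the handling of such reads was not given in the sources used here.

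**Figure D4:**
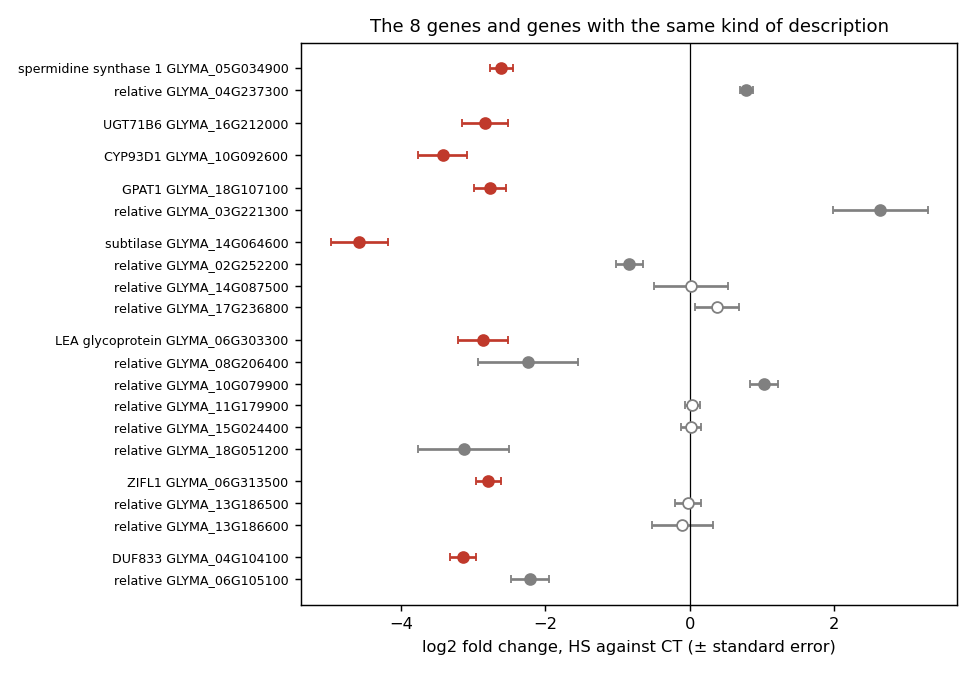
The log2 fold change in HS against CT, with bars of 1 standard error, of the 8 genes (red) and of the 13 relatives (grey), with filled points for an edgeR adjusted p under 0.05. The 8 genes run from -4.58 to -2.61 as the rule required, while their relatives lie on both sides of 0, from -3.13 for GLYMA_18G051200 to 2.64 for GLYMA_03G221300.

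By broader description, 4 of the 8 members fell into 4 of 15 lists of words, with 1 member each, and 4 fell into none. The lists hold described genes only, 4.41% of all genes, and mainly changed ones. Of the 44 other tested genes of lipid transfer, cutin and wax, the list that held GPAT1, 20 were lower and 13 higher in HS against CT. Of 26 other proteases, beside the subtilase, 7 were lower and 13 higher. Of 72 other membrane transporters, beside ZIFL1, 10 were lower and 38 higher. Of 4 other flavonoid and phenylpropanoid genes, beside CYP93D1, 1 was lower. Over all genes tested, 16% were lower and 15.9% higher in HS against CT. In WD + HS against HS, the same lists held 13, 6, 15 and 1 lower genes and 1, 2, 5 and 0 higher ones (edgeR, adjusted p under 0.05). All genes tested had 5.94% lower and 3.21% higher there. In WD + HS against WD the lists held 18, 11, 17 and 2 lower genes and 11, 10, 28 and 1 higher ones, beside 16.4% and 13.7% of all genes tested. The members thus sat in lists whose described genes moved in both directions with heat.

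The genes with the adjoining identifiers were compared with the members as a description of position. Of 16 such neighbours, 10 had enough reads to be tested. In HS against CT, 1 was lower and 1 higher (edgeR, adjusted p under 0.05), beside 16% and 15.9% of all genes tested. The lower one was GLYMA_18G107000, a phosphoribosyltransferase family gene listed just before GPAT1. It stood at 2.41, 1.43 and 1.60 CPM in CT, 2.63, 1.94 and 2.34 CPM in WD, 0.171, 0.579 and 0.907 CPM in HS and 0.0613, 0.0702 and 0.725 CPM in WD + HS. All its heated libraries were below all its unheated ones, with a log2 fold change of -1.70 (SE 0.606, adjusted p = 0.0364 by edgeR) in HS against CT and -2.94 (SE 0.671, adjusted p = 0.00204) in WD + HS against WD. How reads that touch adjoining genes were counted was not given in the sources used here. The higher one was GLYMA_04G104200, listed just after the DUF833 gene, at 38.4 to 44.2 CPM in CT and 57.7 to 66.1 CPM in HS (log2 fold change 0.50, SE 0.104, adjusted p = 0.000802 by edgeR).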

How the data were processed

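RNA from pooled closed flowers was sequenced by the authors, who aligned trimmed reads with HISAT2 (2.2.1) to the Ensembl Plants soybean genome. The deposited raw counts hold reads per gene in each of 12 libraries, and the counting program and the use of strand were not given in the sources used here. The deposited FPKM values were made by the authors with Cufflinks. CPM was computed from the counts and the column totals, without further scaling. Raw counts of 38410 genes that passed filterByExpr (minimum count 10) were fitted with edgeR 4.0.16 in R 4.3.3, using TMM factors (0.979 to 1.03), the 4 conditions in 1 fit and the quasi-likelihood test, with p-values adjusted by Benjamini-Hochberg over all genes tested and a threshold of 0.05. Standard errors were derived from each fold change and its F statistic, and 95% intervals use 8 residual degrees of freedom. All 8 members passed the filter, and all 8 also passed it when only the HS and WD + HS libraries were used. The script was tested on simulated data.

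The members, lists of words and tests were chosen with earlier results of these data known. All members were named, with the 3 genes nearest outside the limit, genes sharing a description and the adjoining genes. Descriptions came from the study's lists and cover 2464 genes. Values of the authors' own comparisons in those lists were not used. The table of reference genes held 0 of the files' soybean identifiers, so no position or sequence is given. Alternatives were DESeq2 1.42.0, limma 3.58.1 on log2 FPKM with a pseudocount of 1 or 0.1, upper-quartile and no factors, no filter, at least 10 reads in every library, a replicate block, the compared libraries alone, a minimum log2 change of 1, and each library left out.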

Additional observations from a re-analysis of the deposited data

How the results depend on the processing

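The number of genes meeting the rule was 59 at a limit of 50%, 0 at 12.5% and 3 with a minimum of 10 CPM. It ranged from 8 to 10 with single libraries left out, and all 8 genes remained each time. With at least 10 reads in every library, 4 members could be tested, so the count lower was 4 in HS against CT, 4 in WD + HS against WD, 4 in WD + HS against CT and 0 in WD + HS against HS, since CYP93D1, UGT71B6, GPAT1 and the subtilase were left out. The count lower in WD + HS against HS was 1 in limma on log2(FPKM + 1) and 1 to 3 with single libraries left out. In WD against CT it was 1 with no filter and 1 with only the compared libraries (the subtilase both times), and 0 to 1 with single libraries left out (DUF833 without WD replicate 2, adjusted p = 0.0342 by edgeR). For the interaction it was 0 to 1. What a shared replicate number stands for was not given. Deviations from the condition mean correlated at -0.1 to 0.103 in 18 same-numbered pairs of libraries and at -0.0915 to 0.107 in 36 other pairs. With the replicate block 2 members were called lower in WD + HS against HS, 0 in WD against CT and 0 for the interaction.

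Among 1024 alternative values of single members, 25 changed sign, and none of these was called. In limma (pseudocounts 1 and 0.1), the LEA glycoprotein GLYMA_06G303300 had 0.12 and 0.20 and the subtilase GLYMA_14G064600 0.0545 and 0.24 in WD + HS against HS. CYP93D1 (GLYMA_10G092600) had 0.0561 and 0.0529 and UGT71B6 (GLYMA_16G212000) 0.0512 and 0.0604 in WD against CT, and ZIFL1 (GLYMA_06G313500) had -0.0581 and -0.13 for the interaction. With single libraries left out, WD + HS against HS ranged from -0.47 to 0.41 for the LEA glycoprotein, -0.26 to 0.0135 for ZIFL1 and -0.66 to 0.83 for the subtilase. WD against CT ranged from -0.0872 to 0.21 for spermidine synthase 1, -0.37 to 0.14 for CYP93D1 and -0.27 to 0.12 for UGT71B6. The interaction ranged from -0.41 to 0.0667 for DUF833 and -0.0804 to 0.19 for ZIFL1. The causes were not tested. Depth limits CYP93D1, UGT71B6, GPAT1 and the subtilase most, with 1 to 35 reads in a heated library.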
